A study of Mus musculus with 10 samples.

Results

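The genes described here encode the translation initiation factors of the mouse, the proteins that bring an mRNA, the initiator tRNA and the ribosomal subunits together, and the kinases that phosphorylate the factor eIF2. They were taken as the rows of the deposited count table whose gene name begins with Eif and a digit and does not mark a pseudogene, which gave 56 of 40789 genes. The RNA came from microglia, which are the macrophages that live in brain tissue, sorted from the cortex of 10 female C57BL6/J mice aged 2 to 3 months, with 1 library per mouse. Every mouse, control mice included, was CX3CR1+/egfp, so that 1 copy of the fractalkine receptor gene carried a green fluorescent reporter, and cells with high fluorescence were collected. The LPS group (n = 5) had been injected intraperitoneally with 4 mg/kg lipopolysaccharide, a component of the bacterial outer membrane, and the saline group (n = 5) with saline, 24 hours before. The design asks how the RNA of these cells differed between LPS and saline mice.

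Initiation begins when eIF2 delivers the initiator tRNA to the small ribosomal subunit, which also carries eIF1, eIF1A, eIF3 and eIF5. The eIF4 factors bind the cap of the mRNA, unwind its leader and recruit this complex, which scans to the start codon, where eIF5B helps the large subunit to join. Phosphorylation of the alpha subunit of eIF2 blocks its recycling by the exchange factor eIF2B and lowers initiation on most mRNAs, a control point that cells use under viral infection, unfolded protein stress and lack of amino acids or heme. The 4E-binding proteins are a further brake, since they occupy the cap-binding factor eIF4E until the kinase mTORC1 phosphorylates them.

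Of the 56 genes, 53 passed the filter on low counts and were tested. Most initiation factors with a changed level were higher in LPS: 27 of 53 rose and 3 fell (edgeR quasi-likelihood test, adjusted p under 0.05). Over all 13793 genes tested, 22.4% rose and 22.5% fell, 44.9% in either direction. The median log2 fold change was 0.45 over the 53 genes, beside 0.0014 over all genes tested. All 5 LPS mice lay above all 5 saline mice for 26 of the 53 and below them for 2, where 14.1% and 15.7% of all tested genes did so, 29.8% in either direction. Values below are CPM, counts scaled to a common library size with TMM factors, listed in the order of replicates 1 to 5 or as mean ± SD over 5 mice, and a log2 fold change compares LPS with saline and stands ± its standard error. The largest rises were those of Eif4ebp1, Eif5a and Eif1a, the largest called fall that of Eif4g2. Total counts per library ran from 11577295 to 15274421 in saline and from 12928007 to 15332121 in LPS. The 56 genes together took 0.457% ± 0.0147 (SD, n = 5) of all counts in saline mice and 0.536% ± 0.0357 (SD, n = 5) of them in LPS mice. In these sorted samples fewer cells of a type and less RNA per cell cannot be told apart.

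**Figure D1:**
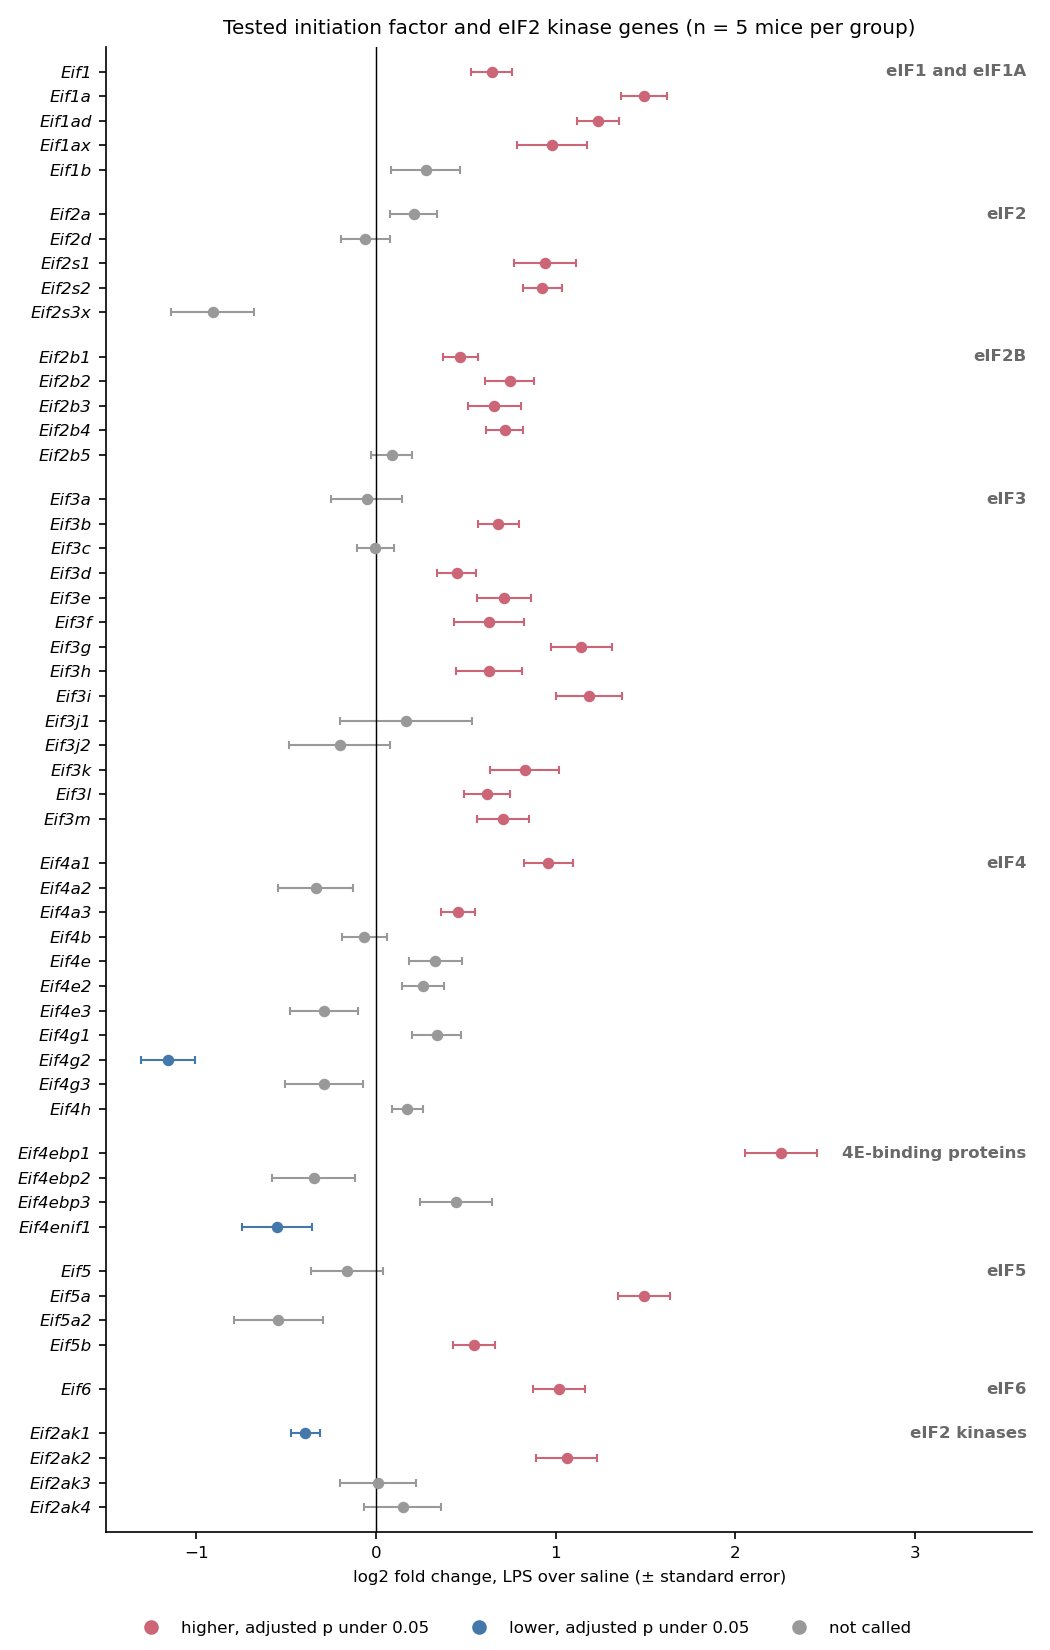
Log2 fold change, LPS over saline, with its standard error for the 53 tested genes, grouped by factor (n = 5 mice per group). Red points rose (27 genes), blue points fell (Eif2ak1, Eif4enif1 and Eif4g2) and grey points were not called, with Eif4ebp1 farthest to the right at 2.25.

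Short genes took a larger share of the counts in LPS libraries than in saline libraries, and many initiation factor genes are short. Of the counts on the 13199 genes with a length, the shortest 20% of genes held 12.4% to 17.5% in the saline libraries and 20.2% to 28.9% in the LPS libraries. Relative gene length was taken from the ratio of counts to deposited RPKM. Of the 34 tested members shorter than the median gene, 22 rose and 1 fell, and of the 19 at least as long, 5 rose and 2 fell. The shares of all short and of all long genes that rose or fell were not computed. These counts therefore do not show whether the members differ from other genes of like length. With the trend over length removed from each library, 25 of the 53 rose and 4 fell, beside 20.1% and 18.4% of all 13199 genes in that fit. Of the 27 that rose, 21 also rose without the trend, and the median log2 fold change of the members went from 0.45 to 0.30. The 6 whose rise was not called without the trend were Eif1, Eif3e, Eif3f, Eif3h, Eif3m and Eif4a3. Eif2ak4, Eif2d, Eif4e2 and Eif4g1 were called higher, and Eif1b and Eif4ebp2 lower, in that fit but not with the counts as deposited. Across the 53 members the correlation of log2 fold change and log2 relative length was -0.53 (Pearson r, across genes, which are not independent and share the same 10 libraries), and across all 13199 genes with a length it was -0.38. After removal of the trend it was 0.02 across the members, and a value near 0 is what the removal is built to give.

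**Figure D2:**
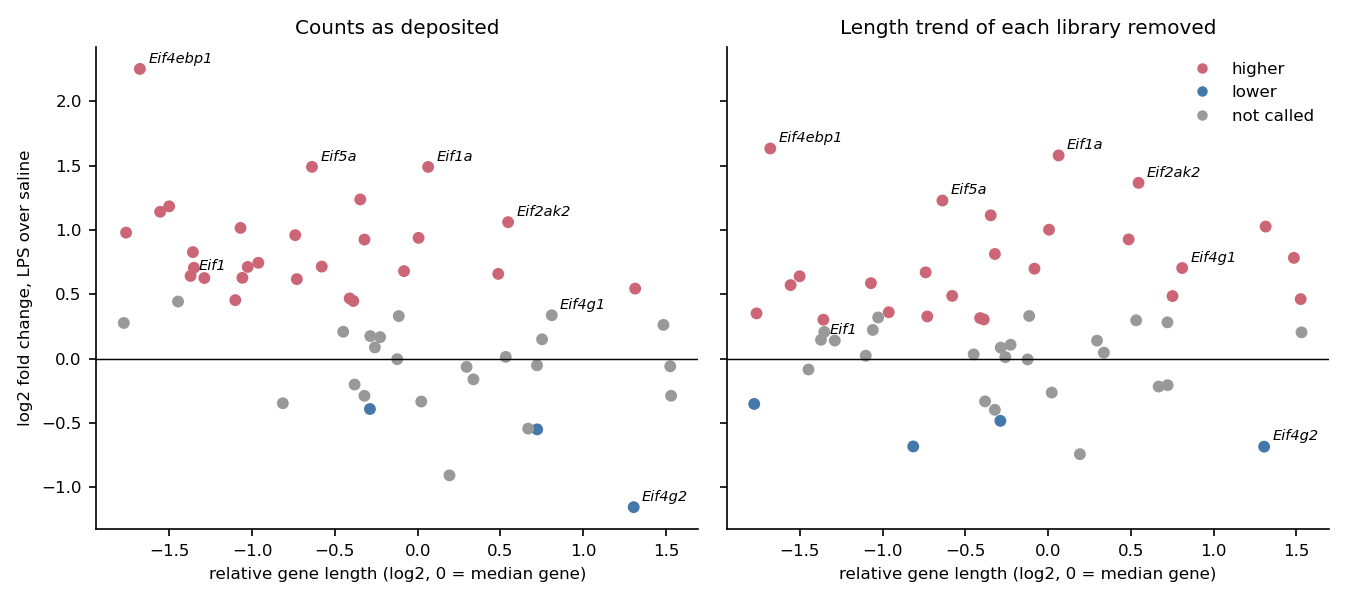
Log2 fold change of the 53 tested members against relative gene length (log2, 0 at the median gene), with the counts as deposited on the left and with the length trend of each library removed on the right. Red points rose, blue points fell and grey points were not called. Eif4ebp1, Eif1a, Eif5a and Eif2ak2 stayed among the genes that rose, while Eif1 dropped to 0.15 and Eif4g1 went up to 0.70.

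Genes for eIF1 and eIF1A, which hold the small subunit open for scanning and guard start codon choice, rose for 4 of 5 members, beside 22.4% of all genes tested. Their median log2 fold change was 0.98 and, with the length trend removed, 0.35. Eif1a (Entrez gene 13664, chromosome 18, 46597704 to 46610225 on GRCm38) encodes eIF1A. It had 79.4, 73.1, 85.7, 70.2 and 65.7 CPM in the saline mice and 185, 259, 239, 194 and 175 CPM in the LPS mice. Every LPS mouse was more than 2-fold above every saline mouse, and the mean went from 74.8 ± 7.85 to 210.3 ± 36.5 CPM (edgeR log2 fold change 1.49 ± 0.13, adjusted p = 1.87e-06). Eif1ax, the X-linked gene for eIF1A, had 27.9, 21.1, 22.2, 17.7 and 28.3 CPM in saline and 38.6, 43.5, 46.4, 37.01 and 65.8 CPM in LPS (edgeR log2 fold change 0.98 ± 0.19, adjusted p = 0.000667), with no overlap. It went from 25.1 ± 5.05 to 50.6 ± 12.9 RPKM, where Eif1a went from 22.6 ± 2.52 to 64.8 ± 11.5 RPKM. Eif1ad, whose product carries an eIF1A domain, had 31.8, 30.1, 37.01, 29.1 and 38.7 CPM in saline and 77.8, 77.97, 75.5, 66.5 and 95.6 CPM in LPS, with no overlap (edgeR log2 fold change 1.24 ± 0.12, adjusted p = 8.28e-06). Eif1 itself had 139, 95.1, 102, 90.2 and 100.2 CPM in saline and 172, 163, 151, 169.7 and 167 CPM in LPS. The first saline mouse stood closest to the LPS mice, and the rise (edgeR log2 fold change 0.64 ± 0.11, adjusted p = 0.00148) was not called without the length trend (0.15, edgeR adjusted p = 0.437). The 3 pseudogene rows of Eif1 were not called (edgeR adjusted p of 0.0648 to 0.258). The paralog Eif1b was not called (70.00 ± 14.7 and 84.9 ± 16.9 CPM, edgeR adjusted p = 0.201), though it was called lower without the length trend (-0.35, edgeR adjusted p = 0.014).

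The eIF3 complex, a scaffold of many subunits that keeps the ribosomal subunits apart and links the small subunit to the mRNA, had 10 of 14 genes higher and none lower (edgeR, and none at an unadjusted p under 0.05), with a median log2 fold change of 0.63 and, with the length trend removed, 0.29. Over all genes tested, 22.4% rose and 22.5% fell. Eif3i (Entrez gene 54709, chromosome 4, 129591974 to 129600648), which encodes a beta-propeller subunit, had 116, 84.7, 115, 73.99 and 123 CPM in saline and 237, 228, 232, 179 and 290.5 CPM in LPS. The lowest LPS value, in replicate 4, was still above the highest saline value (edgeR log2 fold change 1.18 ± 0.18, adjusted p = 6.96e-05). Eif3g, an RNA-binding subunit, had 47.3, 47.7, 57.5, 47.9 and 72.1 CPM and 106, 122, 138, 91.5 and 144 CPM in the same order (edgeR log2 fold change 1.14 ± 0.17, adjusted p = 7.16e-05). Both are short genes, and their log2 fold changes were 0.64 and 0.57 with the length trend removed, where both still rose.

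The other subunits that rose did so by less. Eif3k had 119, 75.01, 104, 87.4 and 116 CPM in saline and 194, 153, 179, 129.8 and 234 CPM in LPS (edgeR log2 fold change 0.83 ± 0.19, adjusted p = 0.0015). Eif3e had 128, 105, 104, 79.2 and 132 CPM in saline and 200.2, 198, 179, 153 and 169 CPM in LPS (edgeR log2 fold change 0.71 ± 0.15, adjusted p = 0.00155). Eif3m had 60.7, 44.5, 53.5, 38.8 and 59.7 CPM in saline and 84.5, 84.2, 86.1, 70.1 and 94.7 CPM in LPS (edgeR log2 fold change 0.71 ± 0.14, adjusted p = 0.00145). In these 3 genes every LPS mouse lay above every saline mouse. Without the length trend Eif3k was still called higher (0.30, edgeR adjusted p = 0.0405). The rises of Eif3e (0.32, edgeR adjusted p = 0.0543) and Eif3m (0.21, edgeR adjusted p = 0.118) were then not called. Eif3b, a core subunit that binds RNA, had 53.2, 39.03, 42.3, 49.8 and 51.5 CPM in saline and 73.6, 85.7, 65.4, 82.8 and 70.6 CPM in LPS (edgeR log2 fold change 0.68 ± 0.11, adjusted p = 0.00097), again with no overlap. Eif3l went from 244 ± 26.6 to 375 ± 58.1 CPM, Eif3d, a cap-binding subunit, from 143 ± 13.9 to 195 ± 26.2 CPM, Eif3f from 17.2 ± 3.43 to 26.6 ± 6.15 CPM and Eif3h from 82.6 ± 18.4 to 127 ± 20.7 CPM (edgeR adjusted p of 0.00272 to 0.0151). Groups overlapped for Eif3h alone among these 10, since saline replicate 5 (106 CPM) lay above LPS replicate 4 (100.6 CPM). Eif3a and Eif3c, which encode the large subunits at the core of the complex, were not called: Eif3a had 147, 197, 172, 169.9 and 122 CPM in saline and 132, 218, 144, 168 and 117 CPM in LPS (edgeR log2 fold change -0.05 ± 0.20, adjusted p = 0.826), and Eif3c had 187, 209, 178, 196 and 166 CPM and 162, 219.8, 201, 187 and 164 CPM (edgeR log2 fold change -0.0042 ± 0.10, adjusted p = 0.981). The groups overlapped in both genes. Eif3j1 and Eif3j2, paralogs for the loosely bound j subunit, held only 399 and 275 counts over all libraries and were not called. The pseudogene rows Eif3s6-ps2 and Eif3s6-ps4, named for an older symbol of Eif3e, rose as well (log2 fold changes 0.68 ± 0.13 and 0.78 ± 0.22, edgeR adjusted p of 0.00759 and 0.0274). The sources used here do not say how reads that match both were counted.

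**Figure D3:**
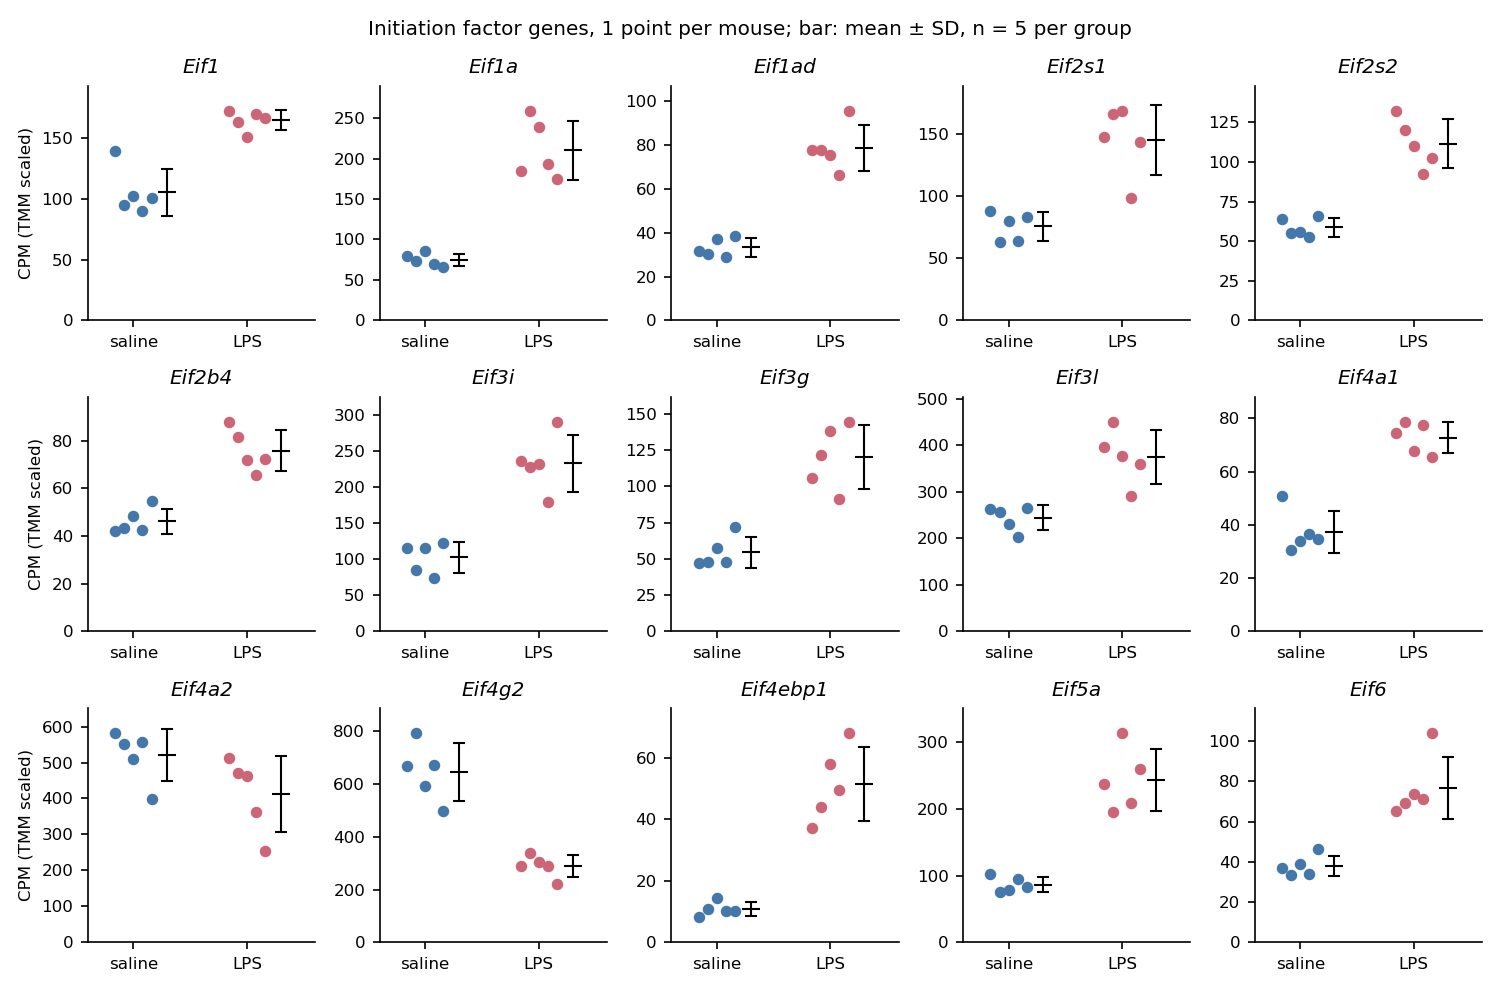
CPM of 15 initiation factor genes in each mouse (saline blue, LPS red, 1 point per mouse, black bar mean ± SD, n = 5 per group, each axis from 0). The groups are apart in every panel but that of Eif4a2, and Eif4g2 is the panel where the LPS mice lie below.

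For eIF2, the genes of the alpha and beta subunits rose and that of the gamma subunit could hardly be measured. Eif2s1 (Entrez gene 13665, chromosome 12, 78862072 to 78887010) encodes the alpha subunit, the target of the eIF2 kinases. It had 87.9, 62.9, 80.4, 64.1 and 83.7 CPM in saline and 148, 167, 169, 99.1 and 144 CPM in LPS (edgeR log2 fold change 0.94 ± 0.17, adjusted p = 0.000321). LPS replicate 4 was the lowest of its group and the other 4 lay between 144 and 169 CPM. Eif2s2, for the beta subunit, had 63.8, 54.98, 55.8, 52.9 and 65.8 CPM in saline and 132, 120.3, 110.01, 92.5 and 102 CPM in LPS (edgeR log2 fold change 0.93 ± 0.11, adjusted p = 7.02e-05). Eif2s3x, the X-linked gene of the gamma subunit, held 231 counts over all libraries, where Eif2s1 held 14791. It had 2.21 ± 0.797 and 1.17 ± 0.169 CPM and was not called (edgeR log2 fold change -0.91 ± 0.23, adjusted p = 0.0545). In 3 other settings it was called lower, namely scaling by library size alone, RPKM values with no filter, and without saline replicate 5. Its Y-linked copy Eif2s3y had 6 counts in all, 3 and 2 of them in LPS replicates 1 and 2, from these female mice. Eif2a and Eif2d, which encode separate proteins that can bring tRNA to the ribosome without eIF2, were not called (68.4 ± 11.7 and 79.1 ± 8.53 CPM for Eif2a, 47.1 ± 7.38 and 45.2 ± 5.97 CPM for Eif2d).

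The exchange factor eIF2B, which reloads eIF2 with GTP, had 4 of 5 subunit genes higher, beside 22.4% of all genes tested. Eif2b4 (Entrez gene 13667, chromosome 5, 31187558 to 31193139), for the delta subunit, had 42.02, 43.4, 48.6, 42.4 and 54.5 CPM in saline and 87.9, 81.4, 71.9, 65.7 and 72.6 CPM in LPS (edgeR log2 fold change 0.72 ± 0.10, adjusted p = 0.000538). Eif2b2, for the beta subunit, had 36.3, 31.9, 30.5, 25.9 and 38.1 CPM in saline and 55.5, 47.8, 49.1, 51.5 and 69.04 CPM in LPS (edgeR log2 fold change 0.75 ± 0.14, adjusted p = 0.00107), and the groups were apart for both genes. Eif2b3, for the gamma subunit, rose from 69.9 ± 9.59 to 110.4 ± 21.6 CPM, with LPS replicate 2 at 149 CPM and the others at 96.6 to 103 CPM. Eif2b1, for the alpha subunit, rose from 60.3 ± 6.59 to 83.4 ± 8.92 CPM (edgeR adjusted p = 0.00829). These 4 also rose without the length trend. Eif2b5, which encodes the catalytic epsilon subunit, had 27.7, 22.6, 21.4, 24.3 and 20.2 CPM in saline and 24.9, 23.7, 22.4, 30.4 and 21.996 CPM in LPS, with overlapping groups (edgeR log2 fold change 0.09 ± 0.11, adjusted p = 0.657). Only counts of calls set it apart from the other subunits; the difference itself was not tested.

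Of the 4 eIF2 kinase genes 1 rose, 1 fell and 2 were not called, where 22.4% of all genes tested rose and 22.5% fell. Eif2ak2 (Entrez gene 19106, chromosome 17, 78850504 to 78882572) encodes PKR, the kinase that binds double-stranded RNA and is known as an interferon-induced gene. It had 42.7, 46.7, 47.3, 41.5 and 36.1 CPM in saline and 113, 72.8, 111, 66.9 and 83.1 CPM in LPS. LPS replicates 1 and 3 were the highest, and the groups did not overlap (edgeR log2 fold change 1.06 ± 0.17, adjusted p = 0.000139). Removing the length trend gave 1.37. Eif2ak1, for the heme-regulated kinase HRI, had 46.8, 44.7, 43.4, 40.1 and 38.9 CPM in saline and 29.7, 33.2, 35.2, 35.9 and 28.96 CPM in LPS. The groups were close but did not overlap, and the fall was small (edgeR log2 fold change -0.39 ± 0.08, adjusted p = 0.021). Its call was lost without saline replicate 1, LPS replicate 1 or LPS replicate 5 (edgeR adjusted p of 0.0541, 0.0514 and 0.0532) and with no filter on low counts (0.0658). Eif2ak3, for PERK, the sensor of unfolded protein in the endoplasmic reticulum, had 28.3, 27.8, 22.7, 40.1 and 33.9 CPM in saline and 22.7, 27.1, 27.02, 43.2 and 34.2 CPM in LPS (edgeR log2 fold change 0.01 ± 0.21, adjusted p = 0.959). Eif2ak4, for GCN2, the sensor of uncharged tRNA, had 18.7, 19.9, 16.2, 22.8 and 14.8 CPM and 15.98, 18.7, 15.4, 31.5 and 20.8 CPM (edgeR log2 fold change 0.15 ± 0.21, adjusted p = 0.573). In both genes LPS replicate 4 was the highest of the 10 mice and the groups overlapped. With the length trend removed Eif2ak4 was called higher (0.49, edgeR adjusted p = 0.0327).

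**Figure D4:**
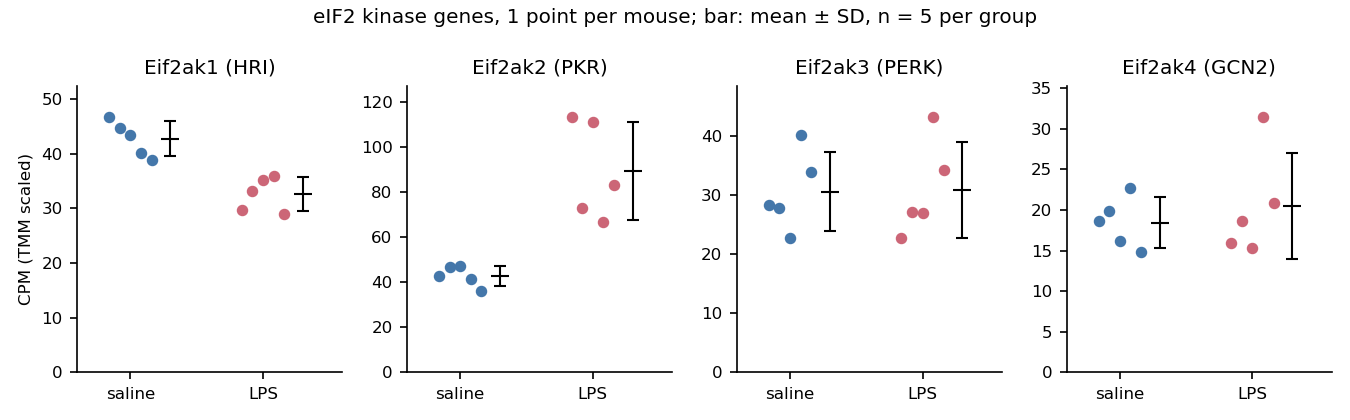
CPM of the 4 eIF2 kinase genes in each mouse (saline blue, LPS red, black bar mean ± SD, n = 5 per group, each axis from 0). Eif2ak2 lies above the saline mice in all 5 LPS mice (66.9 to 113 CPM against 36.1 to 47.3), Eif2ak1 lies below them, and the groups overlap for Eif2ak3 and Eif2ak4.

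Promoter sequences from RefSeq on GRCm38.p6 were found for 44 of the 56 genes, 250 bases before to 50 bases after each annotated start, and were searched for 5 short motifs. The core of the interferon-stimulated response element, spelled GAAA, any 2 bases and GAAA, and searched on both strands like the other motifs, was present for 4 of the 44 (9.09%), beside 3.99% of all 27025 genes with such a sequence and 3.93% of the 9785 tested ones. The 4 were Eif2ak2, Eif2s1, Eif2s3x and Eif3a, of which Eif2ak2 and Eif2s1 rose. The matches of both are shown because the kinase PKR is the member best known as interferon-induced, with the motif in capitals and the gene's strand given.
Eif2ak2 (chr17:78882535-78882564, minus strand): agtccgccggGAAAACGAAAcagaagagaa
Eif2s1 (chr12:78861850-78861879, plus strand): cctggagcaaGAAACAGAAActtacctctc
The match of Eif2ak2 begins at base 19, with the annotated start counted as base 1, and that of Eif2s1 begins 212 bases before its start. The E-box CACGTG, the recognition sequence of Myc and related factors, reads the same on both strands. It was present for 10 of the 44 (22.7%), beside 8.09% of all genes with a promoter sequence and 11.9% of the tested ones. Of these 10 genes 4 rose, and of the 44 genes 20 rose. The 4 that rose are shown first, with the match of Eif5a nearest to a start, then both matches of Eif4e, which was not called.
Eif5a (chr11:69921443-69921472, minus strand): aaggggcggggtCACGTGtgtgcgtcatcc
Eif4a1 (chr11:69672595-69672624, minus strand): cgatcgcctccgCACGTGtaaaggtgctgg
Eif3f (chr7:108934335-108934364, plus strand): caagatatgattCACGTGgtataaatttag
Eif3k (chr7:28981915-28981944, minus strand): ctggaaggaaatCACGTGgtagacaaaaaa
Eif4e (chr3:138527028-138527057, plus strand): ctcgccagcgacCACGTGatcacttttttt
Eif4e (chr3:138527192-138527221, plus strand): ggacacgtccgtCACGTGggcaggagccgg
The others with an E-box were Eif1b, Eif3a, Eif4g1, Eif4h and Eif5a2. The STAT motif TTCNNNGAA was present for 5 of the 44 genes, among them Eif2ak2 (11.4%), beside 9.55% of all genes and 8.55% of the tested ones. The core TGATGNAA of the element bound by C/EBP and ATF factors was present for 1, Eif2s3x (2.27%), beside 4.51% and 2.89%. The loose NF-kB core of GGG, any 5 bases and CC was present for 26 (59.1%), above the 53.5% of all genes and below the 69.8% of the tested ones. A match of letters is a description of the sequence, and binding was not measured.

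Among the eIF4 factors 2 of 11 tested genes rose and 1 fell (18.2% and 9.09%), beside 22.4% and 22.5% of all genes tested. Eif4g2 (Entrez gene 13690, chromosome 7, 111067985 to 111083030) encodes a relative of the eIF4G scaffold, also named DAP5, that lacks the binding site for eIF4E and serves initiation that does not depend on it. It had 667, 793, 594, 672.9 and 496 CPM in saline and 291, 339, 305, 290.3 and 222 CPM in LPS. The highest LPS mouse lay below the lowest saline mouse, and the mean fell 2.23-fold (edgeR log2 fold change -1.16 ± 0.15, adjusted p = 4.25e-05). Eif4g2 is among the longer members, and without the length trend its log2 fold change was -0.68 (edgeR adjusted p = 0.00166). Eif4g1, for the main cap-dependent scaffold, had 24.7, 36.7, 31.6, 40.7 and 33.5 CPM in saline and 41.2, 49.9, 41.5, 39.9 and 38.98 CPM in LPS (edgeR adjusted p = 0.0781, and 0.000893, higher in LPS, without the length trend). Eif4g3, a further scaffold gene, had 115, 111, 95.02, 139 and 108 CPM in saline and 68.3, 81.97, 76.1, 150.4 and 88.4 CPM in LPS. LPS replicate 4 was the highest of all 10 mice there and the other 4 LPS mice lay below every saline mouse. With all mice Eif4g3 was not called (edgeR adjusted p = 0.235), and without LPS replicate 4 it was called lower.

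Of the genes of the helicase eIF4A, which unwinds the mRNA leader, Eif4a1 rose while its paralog was not called. Eif4a1 (Entrez gene 13681, chromosome 11, 69666936 to 69672423) had 50.9, 30.7, 34.02, 36.6 and 34.6 CPM in saline and 74.4, 78.6, 67.7, 77.6 and 65.5 CPM in LPS (edgeR log2 fold change 0.96 ± 0.13, adjusted p = 0.00013). Its paralog Eif4a2, the more abundant of both per length (161 ± 21.4 RPKM in saline, where Eif4a1 had 19.7 ± 4.01), had 582, 552, 509, 556 and 399 CPM in saline and 514, 471, 461, 362 and 254 CPM in LPS and was not called (edgeR log2 fold change -0.33 ± 0.21, adjusted p = 0.148). The pseudogene row Eif4a-ps4 rose too (log2 fold change 1.25 ± 0.14, edgeR adjusted p = 2.92e-05). It held 3231 counts over all libraries, where Eif4a1 held 7475. The sources used here do not say how reads that match several of these rows were counted, so the levels of Eif4a1 and Eif4a2 are uncertain. Eif4a3, a relative that serves in the exon junction complex, rose from 118 ± 10.53 to 161 ± 18.4 CPM (edgeR adjusted p = 0.00888), but not without the length trend (0.02, edgeR adjusted p = 0.889). The cap-binding genes were not called: Eif4e had 70.1 ± 3.89 and 88.2 ± 18.3 CPM (edgeR adjusted p = 0.0814), Eif4e2, for a cap-binding repressor, had 136 ± 15.3 and 163 ± 22.6 CPM, and Eif4e3 had 24.9 ± 4.45 and 20.4 ± 4.45 CPM. Eif4e was called higher in the fit with a term for the range of mouse numbers, and both Eif4e and Eif4e2 were called higher without LPS replicate 4. Eif4e2 was also called higher without the length trend (0.78, edgeR adjusted p = 0.00263). Eif4b and Eif4h, cofactors of the helicase, were not called either (log2 fold changes -0.06 ± 0.12 and 0.18 ± 0.09). Eif4e1b, known from the egg, had 1 count in all.

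Eif4ebp1 (Entrez gene 13685, chromosome 8, 27260327 to 27275656), which encodes the first of the 4E-binding proteins, had the largest rise of all tested members. It had 8.17, 10.9, 14.5, 10.1 and 10.3 CPM in the saline mice and 37.1, 44.1, 57.9, 49.7 and 68.02 CPM in the LPS mice. The lowest LPS mouse was more than 2-fold above the highest saline mouse, and the mean rose 4.76-fold (edgeR log2 fold change 2.25 ± 0.20, adjusted p = 7.19e-07). Over 22 other settings its log2 fold change lay between 1.63, without the length trend, and 2.38. The paralog Eif4ebp2 had 5.68 ± 1.04 and 4.47 ± 1.38 CPM and was not called (edgeR log2 fold change -0.35 ± 0.23, adjusted p = 0.293), though it was called lower without the length trend (-0.68, edgeR adjusted p = 0.0404). Eif4ebp3 had 8.27 ± 2.19 and 11.3 ± 1.46 CPM and was not called (edgeR adjusted p = 0.101), but it was called higher in all 3 limma fits of the RPKM values. Eif4enif1, whose product carries eIF4E into the nucleus and to processing bodies, had 59.8, 77.1, 64.7, 90.3 and 56.4 CPM in saline and 44.8, 57.5, 51.9, 51.9 and 31.6 CPM in LPS. It fell (edgeR log2 fold change -0.55 ± 0.20, adjusted p = 0.0197) with LPS replicate 2 just above saline replicate 5, but the call was lost without saline replicate 2 or 4 and without the length trend (-0.21, edgeR adjusted p = 0.271).

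The last steps of initiation were represented by eIF5, eIF5B and eIF6. Eif5a (Entrez gene 276770, chromosome 11, 69916712 to 69921958) encodes eIF5A, which carries the modified lysine hypusine and is now known mainly for its role in elongation and termination. It had 102, 75.1, 78.1, 94.6 and 82.96 CPM in saline and 238, 196, 314, 209 and 261 CPM in LPS, with every LPS mouse above every saline mouse (edgeR log2 fold change 1.49 ± 0.15, adjusted p = 3.53e-06). The pseudogene row Eif5al3-ps had the same change within its error (edgeR log2 fold change 1.49 ± 0.17, adjusted p = 3.94e-05), and the genomic span of Eif5a also overlaps that of Gps2 over 345 bases. Eif5a2, the paralog, was low (3.40 ± 1.11 and 2.32 ± 0.577 CPM) and not called. The genes of the enzymes that make hypusine, Dhps and Dohh, were not called (11.5 ± 1.11 and 12.1 ± 1.98 CPM for Dhps, 3.24 ± 1.20 and 4.38 ± 0.91 CPM for Dohh). Eif5b, for the GTPase that joins the subunits, had 60.99, 65.8, 71.1, 67.2 and 64.1 CPM in saline and 97.1, 117, 92.6, 72.6 and 101 CPM in LPS (edgeR log2 fold change 0.54 ± 0.12, adjusted p = 0.0047). It is a long gene, and without the length trend its log2 fold change was 1.03. Eif5, for the factor that triggers GTP hydrolysis on eIF2, was not called (74.9 ± 13.8 and 67.00 ± 18.4 CPM, edgeR adjusted p = 0.488). Eif6 (Entrez gene 16418, chromosome 2, 155819837 to 155826925), for the factor that keeps free large subunits from joining, had 36.8, 33.3, 39.2, 34.3 and 46.3 CPM in saline and 65.3, 69.5, 73.9, 71.4 and 104 CPM in LPS (edgeR log2 fold change 1.02 ± 0.14, adjusted p = 0.00011). LPS replicate 5 was the highest and the other 4 lay within 65.3 to 73.9 CPM. The remaining row, Eif2c5, is listed by RefSeq as a long noncoding RNA under a former name of the Argonaute family, and had 1 count in all.

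Shares of raw counts within 6 pairs of related genes were set against each other in a two-sided exact permutation test of group means, with p adjusted over the 6 pairs, since such shares do not depend on how libraries are scaled. They do carry the trend over gene length where the genes of a pair differ in length, and no share was computed without that trend. They also depend on how reads that match both genes of a pair, or a pseudogene, were counted, which the sources used here do not give. Eif4a1 made up 6.75% ± 1.22 (SD, n = 5) in saline and 15.6% ± 3.42 (SD, n = 5) in LPS of the counts of Eif4a1 and Eif4a2. Eif4ebp1 made up 65.3% ± 5.27 (SD, n = 5) in saline and 91.9% ± 2.03 (SD, n = 5) in LPS of the counts of Eif4ebp1 and Eif4ebp2. Eif4g1 made up 5.02% ± 1.07 (SD, n = 5) in saline and 12.8% ± 1.22 (SD, n = 5) in LPS of the counts of Eif4g1 and Eif4g2. In each of these 3 pairs the groups did not overlap (exact permutation p = 0.00794, adjusted p = 0.0159, n = 5 and 5), and 0.00794 is the smallest p that 5 against 5 mice can give. The first gene is the shorter in all 3 pairs. The log2 relative lengths were -0.74 for Eif4a1 and 0.02 for Eif4a2, -1.68 for Eif4ebp1 and -0.81 for Eif4ebp2, and 0.81 for Eif4g1 and 1.31 for Eif4g2. The part of length in these shares was not tested. Eif2ak2 made up 58.6% ± 7.22 (SD, n = 5) in saline and 73.6% ± 8.87 (SD, n = 5) in LPS of the counts of Eif2ak2 and Eif2ak3, with LPS replicate 4 (60.8%) inside the range of the saline mice (exact permutation p = 0.0238, adjusted p = 0.0357). That call was lost when any 1 of 7 mice was left out (adjusted p of 0.0571 to 0.0714), all but saline replicates 2 and 3 and LPS replicate 4. The share of Eif1 in Eif1 and Eif1b (60.2% ± 4.47 (SD, n = 5) in saline and 66.2% ± 4.96 (SD, n = 5) in LPS, adjusted p = 0.114 by the exact permutation test) and that of Eif4e in Eif4e and Eif4e2 (34.1% ± 1.62 (SD, n = 5) in saline and 34.9% ± 4.64 (SD, n = 5) in LPS, adjusted p = 0.802 by the same exact test) were not called.

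**Figure D5:**
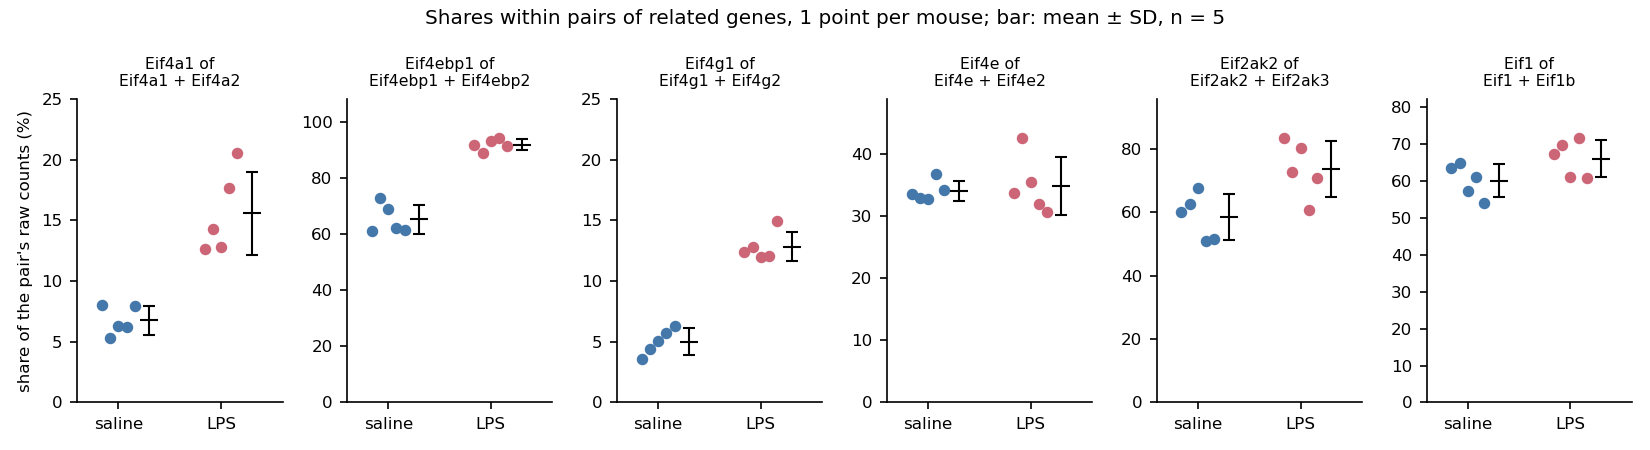
Share of the first gene in the raw counts of each pair, in percent, for each mouse (saline blue, LPS red, black bar mean ± SD, n = 5 per group, each axis from 0). The groups are apart for Eif4a1, Eif4ebp1 and Eif4g1 and overlap for Eif4e, Eif2ak2 and Eif1.

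Levels can be compared between genes in the deposited RPKM values, which are scaled by gene length and hold 53 of the 56 genes. The comparison is uncertain for genes with close paralogs or pseudogenes. How reads with several matches were counted is not given, and a low value can reflect that rule as well as a low level. Each gene has 1 length factor for all libraries, so the larger share of short genes in LPS libraries remains in these values. Changes of place between the groups carry that trend, and places were not computed without it. Over saline mice Eif4a2 had the highest mean (161 ± 21.4 RPKM), followed by Eif3l (128 ± 15.2), Eif3i (91.8 ± 20.3), Eif1 (85.95 ± 15.7) and Eif4g2 (82.2 ± 13.9). The SD of Eif3i, Eif1 and Eif4g2 were larger than the gaps between their means. Over LPS mice the order began with Eif3i (213 ± 37.6 RPKM) and Eif3l (201 ± 32.9), again closer than their SD, then Eif3k (147 ± 33.9), Eif1 (137 ± 7.12) and Eif4a2 (131 ± 33.6). Eif4g2 went from place 5 to place 22 of 53, Eif5a from place 14 to place 6 and Eif4ebp1 from place 39 to place 16. Eif4ebp1 had 10.9 ± 2.47 RPKM in saline and 52.9 ± 12.5 RPKM in LPS, Eif4ebp3 7.10 ± 1.79 and 9.92 ± 1.31, and Eif4ebp2 3.15 ± 0.579 and 2.54 ± 0.798. Among the kinases the saline means ran from 16.5 ± 1.34 RPKM for Eif2ak1 through 9.26 ± 1.04 for Eif2ak2 and 6.65 ± 1.34 for Eif2ak3 to 3.45 ± 0.534 for Eif2ak4. In LPS Eif2ak2 came first (19.7 ± 4.83 RPKM), ahead of Eif2ak1 (12.8 ± 1.13). At the low end, Eif2s3x, Eif5a2 and Eif3j2 stayed below 1 RPKM in the mean of either group.

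Other genes of translation control were taken from 6 lists with 51 tested genes, of which 15 rose (29.4%) and 7 fell (13.7%), beside 22.4% and 22.5% of all genes tested. The lists are short, and the counts within each are descriptions to be read against those shares. All values of these lists come from the counts as deposited, in which the trend over gene length remains. How many of the rises and falls would be called without that trend was not examined for these genes. In the integrated stress response, the program set off by phosphorylated eIF2, 4 of 10 tested genes rose and 2 fell. Atf4, the transcription factor whose translation increases when eIF2 is phosphorylated, rose from 128 ± 19.6 to 262 ± 36.1 CPM (edgeR log2 fold change 1.03 ± 0.13, adjusted p = 5.94e-05). Dnajc3, a chaperone that restrains PKR and PERK, rose from 69.3 ± 6.26 to 116 ± 10.9 CPM, and Ddit3, which encodes CHOP, from 39.8 ± 7.38 to 59.7 ± 14.9 CPM (edgeR adjusted p of 0.000222 and 0.0173). Gcn1l1, for the ribosome-bound activator of GCN2, fell from 54.2 ± 10.02 to 24.6 ± 4.09 CPM, and Impact, an inhibitor of GCN2, from 188 ± 19.9 to 89.3 ± 26.7 CPM (edgeR adjusted p of 9.08e-05 and 0.000371). The phosphatase subunit genes that reverse the phosphorylation were not called, Ppp1r15a at 49.5 ± 24.02 and 66.9 ± 46.4 CPM and Ppp1r15b at 63.7 ± 9.03 and 73.1 ± 18.99 CPM, while the catalytic subunit gene Ppp1ca rose (edgeR log2 fold change 0.46 ± 0.18, adjusted p = 0.0396). Prkra, for an activator of PKR, had 34.9 ± 4.86 and 25.4 ± 6.92 CPM and was not called (edgeR adjusted p = 0.0575).

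Of 14 genes of mTORC1 and of the control of the cap-binding complex only Rps6kb2, for an S6 kinase, was called, and it rose from 33.6 ± 2.49 to 50.2 ± 3.00 CPM (edgeR adjusted p = 0.00138). Mtor (24.6 ± 4.72 and 18.8 ± 3.70 CPM) and Pdcd4, an inhibitor of eIF4A (40.8 ± 4.16 and 19.1 ± 15.2 CPM, edgeR adjusted p = 0.0575), were among those not called. For Pdcd4, LPS replicate 4 (43.7 CPM) lay inside the saline range of 35.5 to 45.3 CPM. The other LPS mice, at 6.45 to 23.3 CPM, lay below every saline mouse. Rptor (edgeR adjusted p = 0.0589) had the same pattern, with LPS replicate 4 at 194.9 CPM, the other LPS mice at 75.8 to 101.4 CPM and saline at 143.1 to 195.8 CPM. Pabpc1, the poly(A)-binding protein that contacts eIF4G, rose from 66.5 ± 8.40 to 124 ± 9.19 CPM (edgeR adjusted p = 6.42e-05), and Paip2b, for an inhibitor of it, fell from 5.55 ± 0.932 to 3.23 ± 1.02 CPM (edgeR adjusted p = 0.0294). Elongation and termination genes rose for 6 of 12 and fell for 2. The genes of the factor that brings tRNA to the elongating ribosome and of its exchange complex, Eef1a1, Eef1b2, Eef1d and Eef1g, all rose (log2 fold changes 0.74, 1.25, 0.93 and 1.34), Eef2 had 516 ± 40.4 and 535 ± 116 CPM, and Eef2k, for the kinase that inhibits it, fell from 155 ± 18.9 to 76.99 ± 10.1 CPM (edgeR adjusted p = 4.15e-05). Etf1, for the release factor eRF1, rose from 43.2 ± 3.32 to 67.4 ± 2.41 CPM and its partner Gspt1 fell from 78.5 ± 12.6 to 54.3 ± 3.23 CPM. Denr and Mcts1, whose products act together in recycling and reinitiation, rose (log2 fold changes 0.98 and 0.91), and Ddx3x, for a helicase of structured leaders, fell from 212 ± 40.9 to 117 ± 20.02 CPM. The mitochondrial initiation factor genes Mtif2 and Mtif3 were not called (log2 fold changes -0.06 ± 0.13 and 0.02 ± 0.13).

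The sorted cells carried the markers of microglia, and 3 of the 6 on the list fell. Summed over 6 markers, all detected, the level was 42626 to 49790 CPM in saline and 12895 to 21674 CPM in LPS, with Cx3cr1, the reporter locus used in the sort, at 4134 ± 736 and 1476 ± 667 CPM (edgeR adjusted p = 0.000994). Summed levels of other lists were 0 to 0.132 CPM in saline and 0.167 to 10.1 CPM in LPS for 6 neutrophil genes (Mpo and Elane at 0), 8.90 to 17.1 CPM in saline and 5.01 to 16.9 CPM in LPS for 5 monocyte genes, 8.91 to 14.2 CPM in saline and 6.72 to 27.9 CPM in LPS for 5 border macrophage genes, and 0 to 2.04 CPM in saline and 0 to 3.87 CPM in LPS for 4 genes of T or NK cells. They were 0.0849 to 0.646 CPM in saline and 0 to 0.586 CPM in LPS for 4 B cell genes (Pax5 at 0), 366 to 426 CPM in saline and 144 to 363 CPM in LPS for 5 astrocyte genes, 99.3 to 125 CPM in saline and 86.1 to 114 CPM in LPS for 5 oligodendrocyte genes, 4.27 to 9.93 CPM in saline and 3.05 to 6.34 CPM in LPS for 5 neuron genes and 49.3 to 72.97 CPM in saline and 4.85 to 10.8 CPM in LPS for 5 endothelial genes (Cldn5 at 0). Single genes made up most of some sums: Slc1a3 the astrocyte sum (381 ± 22.1 and 211 ± 77.9 CPM, while Gfap had 0.739 ± 0.722 and 2.13 ± 1.06, and Aqp4 0.403 ± 0.228 and 0.717 ± 0.588), and Pecam1 the endothelial sum (54.1 ± 10.3 and 7.05 ± 2.38 CPM). In the border macrophage list Cbr2 rose from 0.74 ± 0.618 to 10.99 ± 6.61 CPM, while Mrc1 had 10.3 ± 1.84 and 7.32 ± 2.22 CPM and was not called. The monocyte gene Ccr2 fell from 10.2 ± 2.93 to 2.45 ± 1.54 CPM (edgeR adjusted p = 0.000559). Plac8, on the same list, had 2.28 ± 1.38 and 6.65 ± 5.83 CPM and was not called. The part of these levels in the changes of the initiation factors was not tested.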

How the data were processed

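Microglia of 10 mice were sequenced, 1 library per mouse. The authors deposited raw counts for each gene (the submitters' processing notes list featureCounts, GRCm38 and mm10) and 2 tables of normalised RPKM values, of which the larger, with 13199 genes, was used. The deposited name of the RPKM tables holds CRAC, the name of a read mapper, and no label states its role. Annotation, strand use and treatment of reads with several matches: not given in the sources used here. Paralogs, pseudogenes and the 15 members whose span overlaps another gene are therefore uncertain. Among RPKM values, 99.96% of 10249 genes with at least 20 counts everywhere were within 5% of the count times 1 gene factor and 1 library factor. The row with no gene name was left out, and 15 names that a spreadsheet had turned into dates were restored from the gene ID. All 56 gene IDs matched RefSeq for GRCm38.p6, the source of coordinates, overlaps and promoters.

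Counts were tested with edgeR 4.0.16 (R 4.3.3): TMM factors, filterByExpr, quasi-likelihood F test, Benjamini-Hochberg adjustment over all 13793 tested genes at 0.05, no covariate. Standard errors come from log2 CPM with a prior count of 2. Alternatives were other scalings and filters, DESeq2 1.42.0, limma 3.58.1 on voom weights and on log2(RPKM + 1) or log2(RPKM + 0.1) with a mean of at least 1 RPKM or no filter, a term for ranges of mouse numbers, removal of each library's trend over length, and each mouse left out. The tests were tried on simulated counts with known changes. Libraries of a group were distinct (chi-square per degree of freedom at least 14.6). The value was 79.8 to 124.4 between LPS replicate 4 and the other LPS libraries, and 27.4 to 83.1 among those others. Without LPS replicate 4, 3595 of all genes were called higher and 3561 lower, beside 3084 and 3104 with all mice. By the rule for named genes, the value in every mouse is given for called members whose groups were apart and whose mean reached 5 CPM, at most 20 by adjusted p, and for every kinase. It is also given for 8 others, chosen after their values were seen (Eif2b5, Eif3a, Eif3c, Eif4a2, Eif4enif1, Eif4g1, Eif4g3 and Eif5b), and the rest are given by mean ± SD. Members and lists were chosen with earlier results of these data known.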

Additional observations from a re-analysis of the deposited data

Results flagged for a closer look

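In 118 groups of 5 values, those of each tested member and of each pair share, 7 values lay far from the other 4 of their group by Dixon's 95% criterion, and chance alone would flag about 1 group in 20. Among the saline mice, replicate 1 had the high value of Eif1 (138.8 CPM, the others 90.2 to 102 CPM) and replicate 5 that of Eif4h (89.94 CPM, the others 69.2 to 74.6 CPM). Among the LPS mice, replicate 2 had the high values of Eif2b3 (148.7 CPM, the others 96.6 to 103 CPM) and Eif4g1 (49.86 CPM, the others 38.98 to 41.5 CPM). LPS replicate 3 had the low value of Eif4ebp3 (8.773 CPM, the others 11.3 to 12.3 CPM). Eif4g3 was high in LPS replicate 4 (150.4 CPM, the others 68.3 to 88.4 CPM), and Eif6 in LPS replicate 5 (104 CPM, the others 65.3 to 73.9 CPM).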

How the results depend on the processing

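Over 22 other settings, 25 to 29 members were called higher and 2 to 4 lower, and over all genes 2639 to 3704 higher and 2429 to 3561 lower. All 27 rises of the main analysis were called in each setting except removal of the length trend, which kept 21. Of the 3 falls, that of Eif4g2 was called in all 22. Of 23 members followed through all settings, Eif3m (log2 fold change 0.21, edgeR adjusted p = 0.118), Eif1 and Eif3e lost their call without the length trend. Eif2ak3, at 0.01 in the main analysis and 0.30 without the length trend, turned negative with upper quartile scaling (-0.0012), library size alone (-0.069), no filter (-0.0034), a term for mouse number ranges (-0.082) and 5 of 10 fits without a mouse (range -0.137 to 0.124), and Eif2ak4 in 1 of them (-0.056, without LPS replicate 4; range -0.056 to 0.242). The share of Eif2ak2 in Eif2ak2 and Eif2ak3 differed by 15.1 percentage points, and by 12.7 to 18.3 with a mouse left out. The share of Eif4e in Eif4e and Eif4e2 differed by 0.831 points, and by -1.08 to 1.89 with a mouse left out, negative without LPS replicate 2. The cause of these differences was not tested. No paired analysis was possible because the labels give each mouse a number of its own. Few counts limit what could be called for Eif3j1 and Eif3j2, and for Eif2s3x, called lower in 3 of the 22 settings. Groups of 5 mice and amplified reads without molecular identifiers set the precision of all values.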
